A study of Mus musculus with 3 samples.

Results

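In mouse lung cells sorted to be Ly6G-negative, 158 of 31681 kept cells met a neutrophil marker rule. Of these, 4 came from the PBS library, 64 from the LPS library and 90 from the library of LPS with Reg3g (called the Reg3g library below). Cells were chosen by their own transcript counts, in UMIs (counted transcript molecules). A cell had at least 10 UMIs of S100a8 and S100a9 together and a UMI of at least 2 of the 4 genes Csf3r, Cxcr2, Retnlg and Mmp9. It also had at most 2 UMIs of the alveolar macrophage genes Krt79, Plet1 and Slc39a2 together, and a UMI of at most 2 of the 4 monocyte genes Ccr2, F13a1, Ly6c2 and Vcan. The levels of these 13 genes are therefore given as a description of what was selected.

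The mice were C57BL/6, and each of the 3 libraries held the pooled cells of 3 mice. PBS (50 µL), LPS at 4 mg/kg, or the same LPS with 6 µg of Reg3g was given into the trachea, and lungs were taken 24 h later. LPS is a bacterial cell wall component that draws neutrophils into the lung, and Reg3g is a secreted antibacterial lectin. Living leukocytes that stained for F4/80 and for CD11b or CD11c, and not for Ly6G, were sorted and profiled with 10x Genomics GEM-X droplets. There is 1 library per group, so no spread between mice or libraries could be measured. Every interval below is an exact 95% interval that covers counting error only, cells are not replicates, and no test was made.

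Neutrophils are short-lived granulocytes that leave the bone marrow on Csf3 and Cxcr2 signals and reach inflamed lung within hours. They carry preformed granules whose proteins, such as cathelicidin (Camp), neutrophilic granule protein (Ngp) and lactoferrin (Ltf), are mostly made in the marrow, so their transcripts mark younger cells. Calprotectin, the dimer of S100a8 and S100a9, is the most plentiful protein of their cytosol, and Ly6G, a surface protein of mouse neutrophils, is the antigen most often used to sort them.

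The libraries held 52354207 (PBS), 70474636 (LPS) and 60942042 (Reg3g) UMIs in 8475, 15015 and 10213 barcodes. Barcodes with under 500 genes, under 1000 UMIs or over 15% mitochondrial UMIs were removed, which left 8132, 13880 and 9669 cells. The median member held 3158 UMIs in the LPS and 3139 in the Reg3g library, against 4381 and 5619 over all kept cells. Between 28 and 37 barcodes were shared by any pair of libraries, and 0 of them marked a member in both libraries. Of the cells with the highest Scrublet doublet scores, 4 LPS members and 0 Reg3g members were part.

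The label of escaped neutrophils held for only part of the selected cells. When all kept cells were clustered, 1 cluster of 415 cells was led by S100a9, Retnlg, S100a8, Ngp, G0s2 and Camp and was called neutrophil-like. It held 134 of the 158 members, namely 2 from PBS, 56 from LPS and 76 from Reg3g. The genes by which it was named (S100a8, S100a9, Csf3r, Cxcr2, Retnlg and Mmp9) also selected the members, so this overlap is not independent of the rule. The other 24 members lay in clusters led by monocyte, macrophage, dendritic, T-cell or cell-cycle genes. A UMI of Csf1r, the growth factor receptor of macrophages and monocytes, was found in 40 of 64 LPS members and 47 of 90 Reg3g members. Ly6g itself had a UMI in 11 and 18 of them, and Adgre1, which encodes F4/80, in 22 and 19. The cells are therefore called neutrophil-marker cells here.

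Among the selecting genes, Csf3r, the receptor for granulocyte colony-stimulating factor, had a UMI in 53 of 64 LPS and 75 of 90 Reg3g members. Retnlg, a resistin-like protein of granulocytes, had one in 61 and 72. Cxcr2, the main chemokine receptor of neutrophils, had one in 19 and 40, and Mmp9, gelatinase B, in 24 and 51. Summed S100a8 and S100a9 UMIs per cell ran from 10 to 680 with a median of 74.5 in LPS, and from 11 to 1385 with a median of 183.5 in Reg3g. The ranges overlapped widely, but 30 of 64 LPS members and 60 of 90 Reg3g members held at least 100. Just inside the S100 limit (10 to 14 UMIs) lay 5 LPS and 3 Reg3g members, of which 4 and 2 held Csf1r. Just outside it (5 to 9 UMIs, all else met) lay 13 and 5 cells, of which 8 and 2 held Csf1r.

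The selecting genes were also counted in lymphoid cells, which should lack them; the shares in members are set by the rule. With every cell thinned to 1000 UMIs, S100a9 was seen in 96.9% (89.2 to 99.6) of LPS and 98.9% of Reg3g members, against 7.81% of LPS and 6.49% of Reg3g lymphoid cells thinned in the same way. S100a8 was seen in 3.91% and 10.4% of those lymphoid cells. For Retnlg the shares were 54.7% (41.8 to 67.2) in LPS members, 63.3% (52.5 to 73.3) in Reg3g members, 1.56% in LPS and 0% in Reg3g lymphoid cells. Csf3r was seen in 0.781% and 0% of lymphoid cells, and Cxcr2 and Mmp9 in 0% of both. Markers of basophils and mast cells were at 0 for 6 of 6 genes in both libraries. T- and NK-cell markers summed to 36.1 CPM (UMIs per 1e+06 UMIs of the members summed) in LPS and 23.2 in Reg3g, against 4102 and 4711 in lymphoid cells. The lymphoid cells were chosen by a UMI of at least 2 of Cd3d, Cd3e, Cd3g, Trac, Trbc2, Nkg7, Cd79a, Cd79b and Ms4a1. Several of these are T- and NK-cell markers, so the lymphoid level is set by that choice. The 11 interstitial macrophage markers summed to 1711 and 1494 CPM in members, against 3475 and 4004 CPM in classical-monocyte cells of the same libraries. The 7 nonclassical monocyte markers were higher in members, at 1034 and 1247 CPM against 528 and 682 in classical-monocyte cells. The 13 alveolar macrophage markers, 3 of them limited by the selection, were at 1755 and 1036 CPM in members against 1126 and 991 in classical-monocyte cells. Alveolar-macrophage cells, which were chosen by those 3, held 12247 and 12441 CPM of them. Folr2 and Lyve1 were at 0 in LPS members, and Tmem119 in Reg3g members. The 7 classical monocyte markers, 4 of them limited by the selection, summed to 1987 CPM in LPS and 1462 in Reg3g members. Classical-monocyte cells, which were chosen by those 4, held 4482 and 4055 CPM of them. Chil3 is counted in both the alveolar macrophage and the classical monocyte set, and also among the specific granule genes below. It was the largest part of both sums in LPS and in Reg3g members, so these sums do not mark macrophages or monocytes alone.

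Neutrophil-marker cells made up 0.0492% (0.0134 to 0.126) of kept cells in PBS, 0.461% (0.355 to 0.588) in LPS and 0.931% (0.749 to 1.14) in Reg3g. The Reg3g share was 2.02 times the LPS share (1.45 to 2.83), and the LPS share was 9.37 times the PBS share (3.49 to 35.5). The cells of the neutrophil-like cluster were grouped without the marker rule, but the cluster was named by genes of that rule. It held 1.63% of LPS and 1.83% of Reg3g cells, a ratio of 1.12 (0.918 to 1.37), an interval that includes equal shares. Of the 170 LPS and 101 Reg3g cells of that cluster that were not members, 128 and 78 had too few of the 4 granulocyte genes and 71 and 35 too few S100 UMIs. Their median depths were 3474 and 3024 UMIs, against 2798.5 and 2954.5 for members inside the cluster. Since cells were sorted against Ly6G, these are shares of a sorted suspension and not of lung neutrophils.

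**Figure D1:**
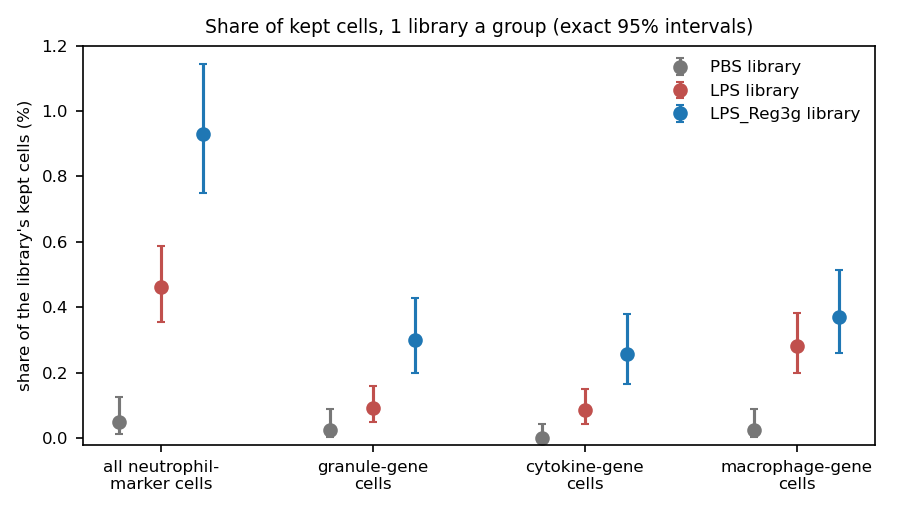
Share of each library's kept cells (%, linear axis) that met the neutrophil marker rule, and that fell in each of the 3 clusters of those cells, in PBS, LPS and LPS_Reg3g. Points are single libraries and bars are exact 95% intervals of counting error; the Reg3g point is highest in each column, and for macrophage-gene cells the LPS and Reg3g bars overlap.

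The 4 PBS members were of 2 kinds. The first held 1150 S100a8, 1256 S100a9, 795 Camp, 544 Ngp and 130 Ltf UMIs among 12880, and the second 357, 410, 241, 213 and 56 among 8674. Both lay in the neutrophil-like cluster, held 4 and 5 UMIs of Ly6g and had no Cxcl2. The other 2 held 12 and 11 S100 UMIs and none of Camp, Ngp or Ltf, and lay outside that cluster. Csf1r did not set the 2 kinds apart, with 0 and 4 UMIs in the first 2 cells and 1 and 2 in the others. The PBS share and the ratio of LPS to PBS given above rest on these 4 cells, 2 of them outside the cluster, and PBS levels are given only as counts per cell.

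Clustering the 158 members alone gave 3 groups, described here by their leading genes, which are not results. The granule-gene cells (44: 2 PBS, 13 LPS, 29 Reg3g) were led by Camp, Ngp, Ltf, Retnlg, Ly6g, Serpinb1a, Cd177 and Prok2. The cytokine-gene cells (37: 0, 12 and 25) were led by Csf3, Il1a, Hilpda, Hcar2, Il1rn, Egr3, Cstdc4 and Csf1. The macrophage-gene cells (77: 2, 39 and 36) were led by H2-Eb1, Sdc4, H2-Aa, Cxcl13, Ccl5, Ifi30, Mmp14 and Cd74, and held all 4 members with high doublet scores. Median depth was 2932, 2030 and 4467 UMIs, and median S100 UMIs were 388, 154 and 52, in that order. Ly6g, itself a leading gene of the granule-gene cells, had a UMI in 26 of 44 granule-gene, 2 of 37 cytokine-gene and 3 of 77 macrophage-gene cells. Csf1r had one in 10, 15 and 65 of them. Macrophage-gene cells were 60.9% (47.9 to 72.9) of LPS and 40.0% (29.8 to 50.9) of Reg3g members.

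As shares of kept cells, granule-gene cells were 3.20 times (1.61 to 6.71) and cytokine-gene cells 2.99 times (1.45 to 6.53) as frequent in Reg3g as in LPS. For macrophage-gene cells the ratio was 1.33 (0.819 to 2.14), an interval that includes equal shares. The neutrophil-like cluster of all cells held all 13 and 29 granule-gene cells and all 12 and 25 cytokine-gene cells of LPS and Reg3g, and 31 of 39 and 22 of 36 macrophage-gene cells.

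**Figure D2:**
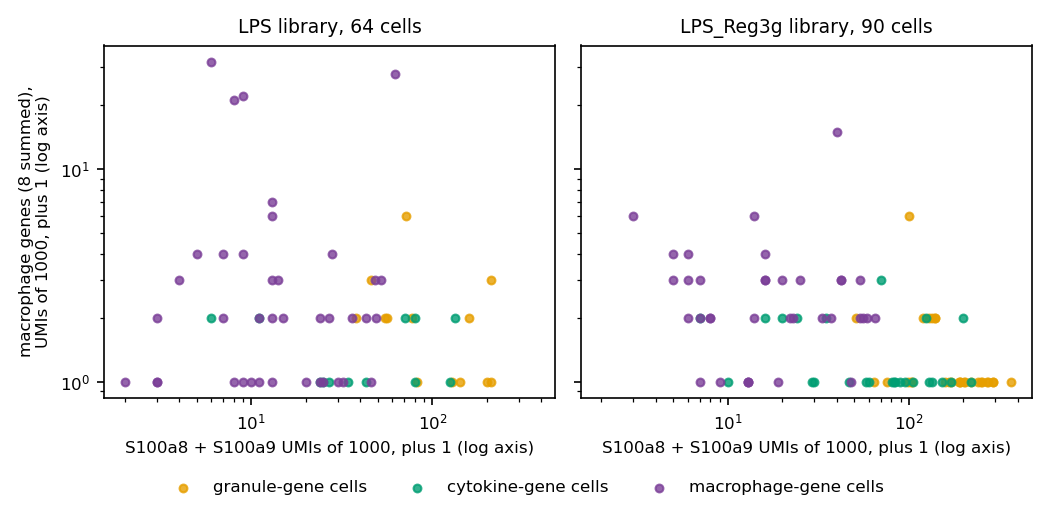
Each point is 1 neutrophil-marker cell thinned to 1000 UMIs, with summed S100a8 and S100a9 UMIs plus 1 (log axis) against the summed UMIs plus 1 (log axis) of 8 macrophage genes (Csf1r, Cd74, H2-Aa, H2-Ab1, C1qa, C1qb, C1qc, Adgre1). Granule-gene cells lie at the right, macrophage-gene cells spread to the upper left, and the Reg3g panel (90 cells) holds more cells at the right than the LPS panel (64 cells).

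The granule genes are also shown by their promoters, because Ngp and Ltf are among the leaders of the granule-gene cells, and likewise the chemokine genes Cxcl2 and Cxcl3, whose CPM was highest in cytokine-gene cells. The 250 bases before the start site are given 5′ to 3′ on the plus strand from RefSeq, build GRCm38.p6. Ngp lies at chr9:110419558-110419807, Ltf at chr9:111019042-111019291, Cxcl2 at chr5:90903649-90903898 and Cxcl3 at chr5:90785851-90786100. Capitals mark matches, on either strand, to TTGCNNAA (letters typical of C/EBP sites) in Ngp and Ltf, and to GGGANTTTC (letters typical of NF-kB sites) in Cxcl2 and Cxcl3.
Ngp: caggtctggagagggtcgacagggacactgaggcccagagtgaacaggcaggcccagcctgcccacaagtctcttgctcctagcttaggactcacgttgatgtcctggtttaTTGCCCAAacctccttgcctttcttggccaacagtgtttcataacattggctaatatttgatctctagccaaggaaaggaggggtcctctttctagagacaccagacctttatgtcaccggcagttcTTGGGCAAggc
Ltf: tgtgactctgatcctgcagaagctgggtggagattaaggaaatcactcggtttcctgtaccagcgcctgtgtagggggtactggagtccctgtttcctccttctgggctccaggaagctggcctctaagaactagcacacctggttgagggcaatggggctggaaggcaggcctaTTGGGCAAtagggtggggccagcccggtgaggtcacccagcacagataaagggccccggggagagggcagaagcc
Cxcl2: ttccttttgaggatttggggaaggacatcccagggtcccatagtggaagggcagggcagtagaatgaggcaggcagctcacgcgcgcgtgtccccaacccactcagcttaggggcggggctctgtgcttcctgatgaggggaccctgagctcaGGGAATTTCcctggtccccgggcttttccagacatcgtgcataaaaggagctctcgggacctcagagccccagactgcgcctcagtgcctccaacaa
Cxcl3: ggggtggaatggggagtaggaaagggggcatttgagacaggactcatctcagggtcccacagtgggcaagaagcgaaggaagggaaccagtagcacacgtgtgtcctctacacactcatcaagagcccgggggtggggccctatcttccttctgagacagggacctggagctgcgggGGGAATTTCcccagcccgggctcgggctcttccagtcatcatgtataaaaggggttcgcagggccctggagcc

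The search covered 20 genes, 11 of granulocytes and 9 of cytokines, chemokines and their partners, of which 11 and 6 are in the promoter table. TTGCNNAA matched 7 of the 11 granulocyte genes (Lcn2, Ltf, Ly6g, Mmp8, Ngp, Retnlg and S100a9), 0 of the 6 cytokine genes, and 9.56% of all 32851 promoters of the table. Another C/EBP-type form, TTNNGNAAT, matched 4 granulocyte genes (Cd177, Ltf, Ngp and S100a9), 3 cytokine genes (Ccl3, Il1b and Il1rn) and 10.2% of all promoters. GGGANTTTC matched 2 of the 6 cytokine genes (Cxcl2 and Cxcl3), 1 granulocyte gene (S100a9) and 0.941% of all promoters. GGAANTTCC, which overlaps GGGANTTTC in part, matched Cxcl2 and Cxcl3, 0 granulocyte genes and 0.813% of all promoters. A gene with several start sites in the table counts as matched if any of its promoters holds the letters. The search used 6 sets of letters, including 2 longer NF-kB-type forms whose letters are not given here, and the sets marked in the sequences and the genes printed were picked after the matches were seen. In Ngp the matches begin 138 and 11 bases before the start site, in Ltf 75, in Cxcl2 97 and in Cxcl3 73. A match describes the letters and not a bound site.

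Specific granule genes were higher in Reg3g than in LPS members, and the 2 measured azurophil genes were not 2-fold apart. Over the 2087 genes with at least 40 counts in the 2 libraries together, 48 (2.3%) were higher in Reg3g by 2-fold or more and 62 (2.97%) were lower by as much, and the median gene stood at -0.09 on the log2 scale. Median-of-ratios scaling, which takes an offset of -0.17 from every log2 ratio, gave 83 higher and 36 lower. Of the 8 specific granule genes measured, 5 were at least 2-fold higher and 0 lower, with a median log2 ratio of 1.58. Ngp had 77 UMIs in 16 LPS members (308 CPM) and 530 in 29 Reg3g members (1537 CPM), a log2 ratio of 2.32 (1.97 to 2.68). Mmp8, neutrophil collagenase, was at 176 and 513 CPM, with a log2 ratio of 1.54 (1.06 to 2.05). Cd177, a neutrophil surface protein stored in granules, was at 56.1 and 171 CPM. Lcn2, the iron-siderophore binding lipocalin, was at 6045 and 8073 CPM, a log2 ratio of 0.42 (0.33 to 0.51), and Chil3 at 970 and 670 CPM. Of the azurophil list, made earliest in the marrow, 2 genes were measured and 0 were 2-fold apart (median log2 ratio -0.06). Lyz2, a lysozyme shared with macrophages, was at 5376 and 4511 CPM, and Ctsc, a protease that activates granule proteases, at 316 and 345. Myeloperoxidase (Mpo) and the proteases Elane, Prtn3 and Ctsg were below the count limit.

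The rarest granule transcripts came from few cells. Camp had 1 UMI in LPS members and 111 in Reg3g members, of which 81.1% were in 1 cell, so its log2 ratio of 6.33 (3.82 to 11.65) was 2.35 with the top cell of each library left out. Ltf had 0 UMIs in LPS and 42 in 4 Reg3g members, at least 10.1-fold higher with 3 counts per library taken as the floor, and 85.7% of them were in 1 cell. Stfa1, a stefin of the granulocyte stefin cluster, had 3 UMIs in 1 LPS cell and 69 in 5 Reg3g cells, of which 44.9% were in 1. Ngp was spread more widely, with 40.0% of its Reg3g UMIs in 1 cell and a log2 ratio of 2.02 without the top cells.

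Calgranulins and stefins are cytosolic calcium-binding and protease inhibitor proteins. S100a8 and S100a9 selected the cells, and without them 3 of 5 measured genes of this list were at least 2-fold higher and 0 lower, with a median log2 ratio of 1.32. S100a8 was at 14847 CPM in LPS and 35244 in Reg3g, a log2 ratio of 1.25 (1.19 to 1.30). S100a9 was at 18464 and 39244 CPM, a log2 ratio of 1.09 (1.04 to 1.14). Both values describe what was selected. Anxa1, the annexin that signals through formyl peptide receptors, was at 112 and 302 CPM, and Stfa2l1 at 116 and 290. Cstdc4, a further cystatin-domain gene, was at 176 and 667 CPM.

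The size of these differences depended on which members were counted. Without the macrophage-gene cells, which left 25 LPS and 54 Reg3g members, the log2 ratio was 0.83 for S100a8, 0.76 for S100a9, 0.78 for Mmp8, 0.73 for Cd177 and 1.70 for Ngp, and the median of the specific granule list was 0.75. Inside the neutrophil-like cluster alone it was 1.33 for S100a8, 1.16 for S100a9 and 2.39 for Ngp. In granule-gene cells taken separately, S100a8 was at 45517 CPM in 13 LPS cells and 88561 in 29 Reg3g cells, and Ngp at 1703 and 5442 CPM. In macrophage-gene cells S100a8 was at 7247 and 9143 CPM. Leaving out the macrophage-gene cells does not remove macrophage RNA alone, and the part of macrophage RNA in these results was not tested.

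**Figure D3:**
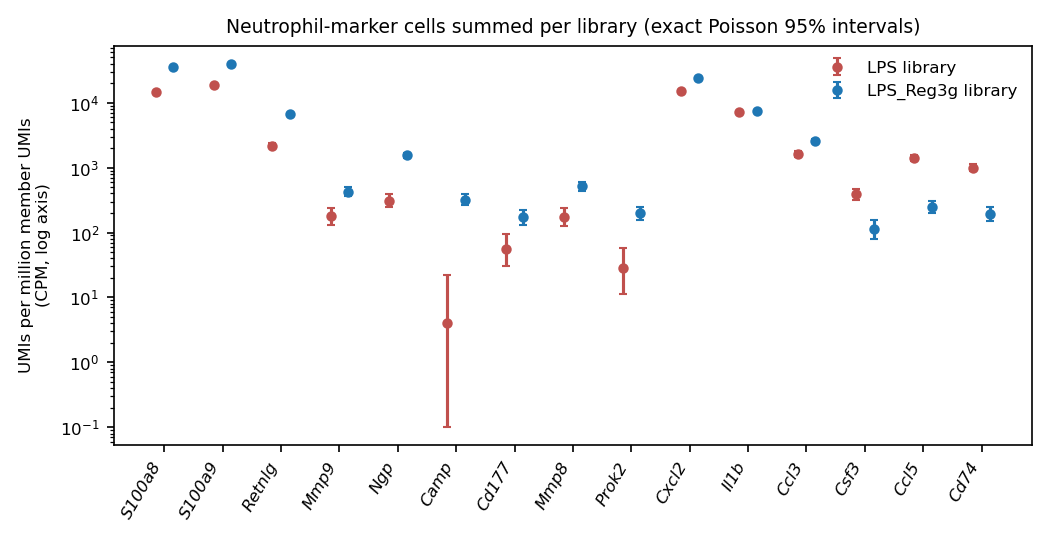
Level of 15 genes in neutrophil-marker cells, in CPM (log axis), with exact Poisson 95% intervals; each point sums the cells of 1 library. Granule and calgranulin genes at the left are higher in Reg3g, Il1b is level, and Csf3, Ccl5 and Cd74 at the right are higher in LPS.

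Among gelatinase and secretory granule genes, which fuse first when a neutrophil is activated, 1 of the 12 that the selection did not use was at least 2-fold higher and 0 lower, with a median log2 ratio of 0.29. This was Pglyrp1, a peptidoglycan-binding protein, at 453 and 1004 CPM (1.15, 0.84 to 1.47). The selecting genes Mmp9, at 180 and 426 CPM, and Retnlg are given as a description. Retnlg was at 2167 and 6689 CPM, a log2 ratio of 1.63 (1.49 to 1.76), with UMIs in 61 LPS and 72 Reg3g members. In granule-gene cells, of which it is a leading gene, it was at 9433 and 22016 CPM, and in cytokine-gene cells at 2591 and 2342. Granule-gene cells were also 20.3% of LPS and 32.2% of Reg3g members. How much each of these adds to the summed difference was not tested.

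Of 29 measured neutrophil identity genes that the selection did not use, 3 were at least 2-fold higher in Reg3g, 0 were lower and the median log2 ratio was 0.31. Ifitm1, an interferon-inducible membrane protein of granulocytes, was at 1234 and 3234 CPM (1.39, 1.21 to 1.58). Ly6g was at 68.1 and 139 CPM (1.03, 0.21 to 1.92). With cells thinned to 1000 UMIs the Ly6g log2 ratio was -0.08 on 21 UMIs, so its direction was not fixed at this depth. G0s2, an inhibitor of triglyceride lipase, was at 3125 and 3867 CPM, and Hdc, which makes histamine, at 361 and 679. Prok2, a chemoattractant prokineticin of neutrophils, was at 28.0 and 197 CPM, in 4 LPS and 20 Reg3g cells.

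Receptors that guide and sustain neutrophils were close to level. Of 8 chemoattractant receptors, the selecting gene Cxcr2 included, 0 were 2-fold apart, with a median log2 ratio of -0.16, and of 15 colony-stimulating factor and cytokine receptors, the selecting gene Csf3r included, 0 were, with a median of 0.03. Cxcr2 was at 140 and 220.5 CPM (0.65, 0.06 to 1.27), and Csf3r at 381 and 453 CPM (0.25, -0.13 to 0.63). Without the macrophage-gene cells these log2 ratios were 0.03 and -0.08. The formyl peptide receptor Fpr1 was at 761 and 641 CPM (-0.25, -0.53 to 0.04), and the complement receptor C5ar1 at 352 and 386. Csf1r was at 356 and 345 CPM. Extl3, described as a receptor for Reg3 proteins, had 6 UMIs in LPS and 7 in Reg3g members, and Reg3g had 0 and 1.

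Chemokines and cytokines made by the members differed little as lists. Of 10 chemokines measured 1 was at least 2-fold higher and 2 were lower, with a median log2 ratio of 0.02, and of 10 cytokines and their brakes 0 were 2-fold apart, with a median of 0.10. Cxcl2, a Cxcr2 ligand that recruits more neutrophils, was at 15376 and 23693 CPM (0.62, 0.57 to 0.68), and without macrophage-gene cells its log2 ratio was 0.09. Il1b was at 7067 and 7475 CPM (0.08, -0.01 to 0.17), and Il1rn, the receptor antagonist of interleukin 1, at 1102 and 1012. Ccl3 was at 1635 and 2547 CPM (0.64, 0.47 to 0.81), Ccl4 at 2929 and 3832, and Il1a at 361 and 525. In thinned cells Cxcl2 had a UMI in 92.2% of LPS members and 37.5% of LPS lymphoid cells, so a low count in a single cell cannot be told apart from free RNA.

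Csf3, the growth factor of neutrophils, was lower in Reg3g members: 97 UMIs in 15 of 64 LPS cells (389 CPM) against 39 in 16 of 90 Reg3g cells (113 CPM), a log2 ratio of -1.78 (-2.36 to -1.23). In cytokine-gene cells it was at 2508 CPM in LPS (7 of 12 cells) and 510 in Reg3g (11 of 25 cells), and it was at least 2-fold lower under every setting tried, from -1.31 to -2.37. The highest single cell held 20.6% of its UMIs in LPS and 20.5% in Reg3g. In the same cells Il1a was at 1212 and 1912 CPM, Il1rn at 3260 and 3824, Ccl3 at 5601 and 7855, and Cxcl2 at 55003 and 50699, so Csf3 stood lower while these were level or higher.

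Ccl5, a chemokine of T cells and macrophages, was at 1418 CPM in LPS and 249 in Reg3g members (-2.51, -2.86 to -2.16). Most of it was in macrophage-gene cells (1818 and 359 CPM), and without them the log2 ratio was -0.85. The class II genes followed the same cells: Cd74 was at 1002 and 194 CPM (-2.37, -2.78 to -1.97) and H2-Aa at 653 and 66.7, and in macrophage-gene cells Cd74 was at 1301 and 243 CPM. A single cell held 35.6% of the LPS H2-Aa UMIs. Cd74 and H2-Aa each fell under 10% of their level in another cell class of the same library. Their counts therefore cannot be told apart from free RNA. Cxcl13, at 28.0 and 377 CPM, was a macrophage-gene cell transcript too, with 62.3% of its Reg3g UMIs in 1 cell, and it was lower (-0.91) without those cells. Among genes with a mean of at least 100 CPM that did not fall under 10% of their level in another cell class, the other genes with the lowest log2 ratios were Acadl (-1.74), Trappc2l (-1.54), Bola2 (-1.54), Lrrc59 (-1.36), St13 (-1.33), Nap1l1 (-1.31), AW112010 (-1.28) and Acp5 (-1.26), each on 17 to 73 UMIs a library.

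**Figure D4:**
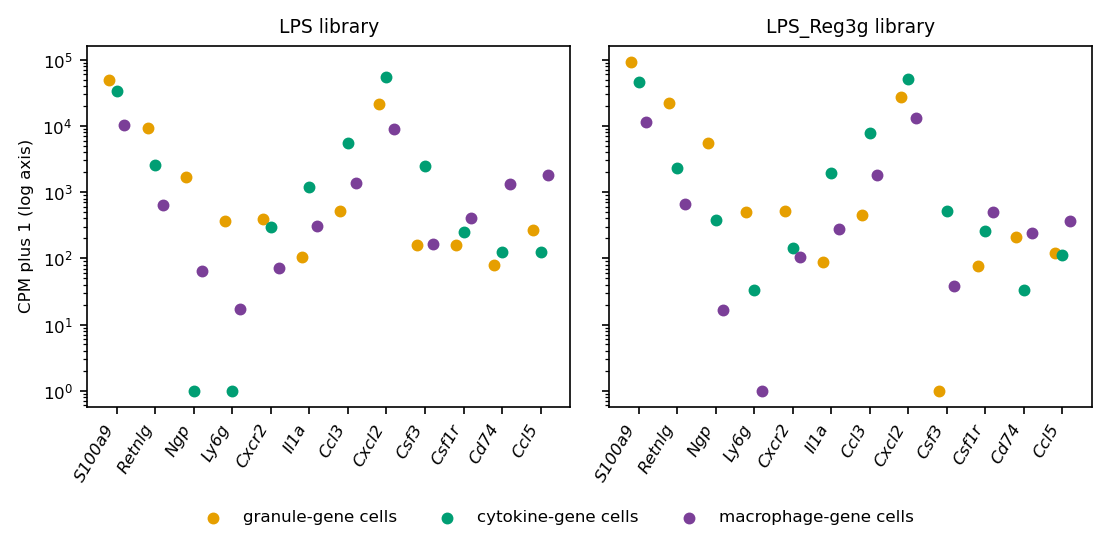
Level of 12 genes (CPM plus 1, log axis) in the 3 clusters of neutrophil-marker cells, in LPS at the left and Reg3g at the right, with no interval drawn. S100a9, Retnlg, Ngp and Ly6g are highest in granule-gene cells, Il1a, Ccl3, Cxcl2 and Csf3 in cytokine-gene cells and Csf1r, Cd74 and Ccl5 in macrophage-gene cells; Csf3 in cytokine-gene cells is lower in Reg3g (510 against 2508 CPM).

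Genes of killing, survival and metabolism were close to the background of all genes, of which 2.3% were at least 2-fold higher and 2.97% lower. The list of NADPH oxidase and oxidative burst genes had 0 of 13 genes 2-fold apart (median log2 ratio -0.19). It also holds antioxidant genes such as Gpx1, Sod2 and Hmox1, so this median is not that of the superoxide-making oxidase alone. Cybb, the catalytic subunit of the oxidase, was at 1086 and 1294 CPM, and Cyba at 2420 and 1880. Survival and apoptosis genes had 0 of 16 (0.07), with Mcl1, which keeps neutrophils alive, at 1675 and 1932 CPM. Pattern recognition and NF-kB genes had 0 of 23 (0.26), with Clec4e at 813 and 1157 CPM. Glycolysis and hypoxia genes had 0 of 13 (-0.21), actin and motility genes 0 of 18 (0.16), guanylate-binding and class I genes 0 of 8 (0.02) and lytic death genes 0 of 5 (-0.15).

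A few lists held from 1 to 3 genes past 2-fold, beside 2.3% higher and 2.97% lower over all measured genes. Type I interferon genes had Rsad2 higher among 15 (60.1 and 128 CPM; median 0.27), with Isg15 at 276 and 444 CPM. Transcription factors had Cebpd higher among 16 (48.1 and 113 CPM; median 0.11), while Cebpb, a regulator of emergency granulopoiesis, was at 1679 and 2692 CPM (0.68, 0.51 to 0.85). Adhesion genes had 3 higher among 18, Cd177 and Cd24a among them (median 0.24), and immediate early genes had Hspa1b higher among 17 (0.33). Fc receptor genes had the inhibitory receptor Fcgr2b lower among 10 (300.5 and 145 CPM, median -0.02). The list named for aged or tissue neutrophils had Ngp higher among 11 (median -0.16). Ngp is also a specific granule gene whose transcripts mark younger cells, so its higher level is not a rise of aged-cell genes. Only 3 proliferation genes passed the count limit, and Stmn1 was lower (160 and 26.1 CPM). Of 3 prostanoid genes 0 were 2-fold apart, with Alox5ap, needed for leukotriene synthesis, at 1158 and 1801 CPM.

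Compared with classical-monocyte cells of the same library (1543 in LPS, 905 in Reg3g), which were chosen to hold 3 or more of the 4 monocyte genes and under 10 S100 UMIs, members held more of many granulocyte transcripts. Of 8898 genes in LPS 720 (8.09%) were at least 2-fold higher and 1299 (14.6%) lower, and of 8221 in Reg3g 459 (5.58%) were higher and 2121 (25.8%) lower. With median-of-ratios scaling the Reg3g counts were 678 and 1460. The median log2 ratio over all genes was -0.19 in LPS and -0.43 in Reg3g. Identity genes that neither selection used were at least 2-fold higher for 20 of 28 in LPS (median 1.35) and 24 of 29 in Reg3g (1.95), with 0 lower in either. The rules that chose the members and the monocyte cells set both classes apart on granulocyte and monocyte genes, so these counts describe the classes.

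Retnlg was at 2.33 CPM in LPS monocyte cells, a log2 difference of 9.86 (9.21 to 10.61) from members. Asprv1, a skin-type aspartic protease found in granulocytes, was 8.05 (7.05 to 9.24) higher in LPS members and 7.88 in Reg3g members. G0s2 was 6.47 (6.28 to 6.68) and Hdc 5.48 (5.01 to 5.96) higher in LPS members on the log2 scale. Csf3 was 4.00 (3.64 to 4.36) higher in LPS members and 2.96 in Reg3g members, and Lcn2 3.52 and 4.42. Ngp stood at 0.24 CPM in LPS monocyte cells, and its log2 difference of 10.30 had a wide interval (8.40 to 13.37). Among the lowest genes of at least 200 CPM beyond those limited by selection were Fn1 (-2.31 in LPS), Ccl2 (-1.80) and S100a10 (-1.80), and proliferation genes were at least 2-fold lower for 8 of 16 in LPS and 13 of 16 in Reg3g.

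These few cells held much of some genes' RNA in the sort. Members held 0.359% of all UMIs of kept cells in LPS and 0.570% in Reg3g. They held 46.9% (LPS) and 72.7% (Reg3g) of the Retnlg UMIs and 47.2% and 76.2% of those of Ly6g. For Ngp the shares were 35.0% and 77.2%, for Prok2 31.8% and 82.9%, and for Stfa2l1 26.8% and 62.1%. The LPS shares of Ly6g and Prok2 rest on only 17 and 7 UMIs in members. They held 29.0% and 49.6% of S100a9, and 10.0% and 25.2% of Hdc. Retnlg and S100a9 selected the cells, so their shares describe what was selected. For the chemokines and cytokines that other cells make they held little: 1.01% and 2.84% of Cxcl2, and 1.30% and 2.75% of Il1b. Csf3 lay between, at 10.3% and 8.01%, and was the one gene of those plotted with the lower share in Reg3g. Fewer cells of a type and less RNA per cell cannot be told apart in such shares. The shares also depend on how many cells met the rule: members were 56 of 226 LPS and 76 of 177 Reg3g cells of the neutrophil-like cluster.

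**Figure D5:**
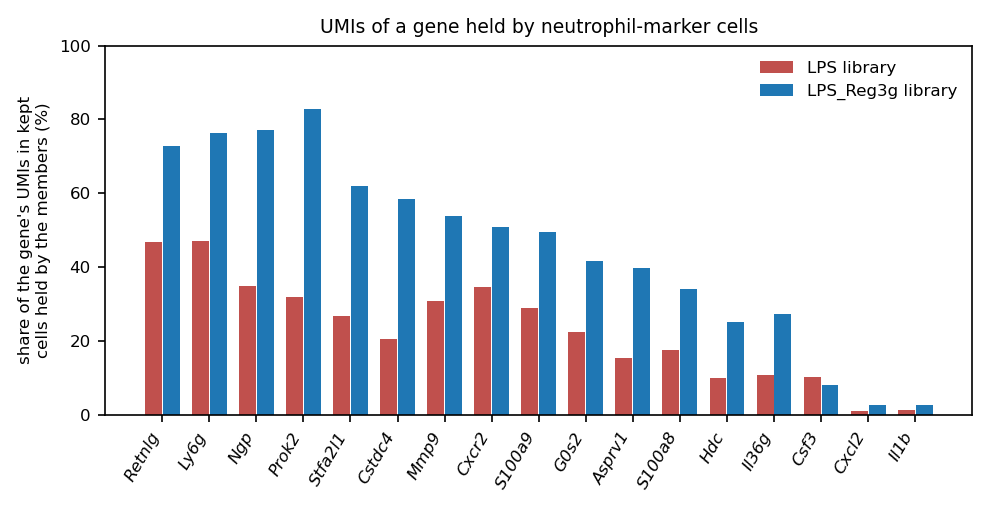
Share (%) of each gene's UMIs over all kept cells of a library that lay in neutrophil-marker cells, for LPS and Reg3g. Retnlg, Ly6g, Ngp and Prok2 pass 70% in Reg3g and stay under 50% in LPS, while Cxcl2 and Il1b stay under 3% in both. Retnlg, Mmp9, Cxcr2, S100a9 and S100a8 selected the cells. No interval is drawn, and the LPS bars of Ly6g and Prok2 rest on 17 and 7 member UMIs.

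Members varied widely among themselves, as counted after thinning to 1000 UMIs. The summed UMIs of Camp, Ngp, Ltf, Retnlg, Mmp8, Ly6g and Cd177 per 1000 ran from 0 to 24 in LPS (median 1, with 26 cells at 0) and from 0 to 70 in Reg3g (median 2, with 31 cells at 0). The summed cytokine UMIs (Il1a, Il1b, Il1rn, Ccl3, Ccl4, Cxcl2, Cxcl3) ran from 1 to 190 in LPS (median 24.5) and from 0 to 179 in Reg3g (median 36). The S100a8 and S100a9 sum ran from 1 to 210 in LPS (median 25) and from 2 to 368 in Reg3g (median 57.5). The macrophage sum of 8 genes ran from 0 to 31 in LPS and from 0 to 14 in Reg3g. All 4 ranges overlapped between the libraries. Across cells, granule and S100 sums had Spearman correlations of 0.66 in 64 LPS cells and 0.72 in 90 Reg3g cells. The macrophage sum had -0.14 and -0.54 with the S100 sum. Cells of a library share its depth and preparation, and the S100 sum also selected them, so these correlations are descriptions alone.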

How the data were processed

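Droplet 3′-end RNA was counted per gene and barcode. The deposited matrices hold raw UMI counts. Per the file headers they come from Cell Ranger 9.0.1. The submitters' processing notes list the same tool beside bcl2fastq 5.0.1, Seurat 4.4.0 and build mm10, with no role for these. Which gene annotation was used is not given in the sources. No depth or batch correction was recorded in them.

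Barcodes were kept with 500 or more genes, 1000 or more UMIs and no more than 15% mitochondrial UMIs. Doublets were not removed; the highest Scrublet scores (0.4% of barcodes per 1000) were left out as an alternative. All kept cells were clustered with scanpy 1.11.5 (2000 variable genes, 30 components, 15 neighbours, Leiden resolution 1), and members alone with 1000 genes, 10 components, 10 neighbours and resolution 0.6. A cluster was called neutrophil-like when at least 3 of 6 markers each had a UMI in 10% or more of its cells. These were S100a8, S100a9, Csf3r, Cxcr2, Retnlg and Mmp9, which also selected the members. The further need for 2 among its 10 leading genes was set after the clusters were seen.

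UMIs were summed over the members of a library and given per 1e+06 (CPM). Log2 ratios have exact conditional binomial, CPM exact Poisson and shares Clopper-Pearson 95% intervals, for counting error only; PCR duplicates are removed by UMIs, but cells of a library are not independent animals. A count of 0 was set to 3. Genes with at least 40 counts over both libraries were measured, and 2-fold was the call. The ratio code was tested on simulated counts. Thinned shares in monocyte and macrophage classes used at most 600 cells.

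The members, the 24 gene lists and the alternatives were chosen with earlier results of these data known. Named genes are the selecting genes, the sort antigens, the 10 highest and 10 lowest log2 ratios of at least 100 mean CPM, the 15 highest and 10 lowest against monocyte cells of at least 200 CPM, the 20 most abundant, leading genes of the member clusters, and up to 4 abundant and 3 most different genes of each list; predicted, ribosomal, mitochondrial, haemoglobin and immunoglobulin genes, and genes under 10% of their level in another class, were left out of the ranked parts. Genes named beyond these were chosen after their values were seen. Of the list symbols, 5 did not match the files. Some genes that this rule names are not reported here.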

Additional observations from a re-analysis of the deposited data

Results flagged for a closer look

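Barcodes that the cell filter removed also met the marker rule. In the LPS library they were 12 of 1135 removed barcodes, or 1.06% (Clopper-Pearson 0.547 to 1.84), and in the Reg3g library 12 of 544, or 2.21% (1.14 to 3.82). In the PBS library 0 of 343 did, which at 3 counts allows a share of up to 0.875%, and the Clopper-Pearson upper limit was 1.07%. The Reg3g interval lay above both limits, while the LPS share lay below 1.07% and its interval reached below both, so a difference of LPS from PBS was not detectable at this depth. These 24 barcodes had median depths of 792 (LPS) and 800 (Reg3g) UMIs, 417.5 and 312.5 genes, and 60.5 and 83.5 S100a8 and S100a9 UMIs. They were in no comparison of the report; with them the members were 76 of all LPS barcodes and 102 of all Reg3g barcodes. Whether they are shallow cells or droplets of free RNA was not tested.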

How the results depend on the processing

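No paired analysis was possible because each group is 1 library. The share of members depends on the rule. In LPS (0.461%) it was 0.352% with 1000 or more genes and no more than 10% mitochondrial UMIs, 0.281% with at least 50 S100 UMIs, 1.20% with 1 and 0.159% with 3 granulocyte genes, 0.663% with no monocyte limit and 0.180% without macrophage-gene cells. In Reg3g (0.931%) the same settings, with no alveolar macrophage limit in place of no monocyte limit, gave 0.534%, 0.724%, 1.86%, 0.414%, 1.23% and 0.558%. In PBS 3 granulocyte genes gave 0.0123%. The Reg3g to LPS ratio of shares stayed between 1.52 and 2.61 except without macrophage-gene cells (3.10).

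Of genes in Reg3g against LPS, 48 higher became 83 with median-of-ratios scaling, 17 in thinned cells, 25 without macrophage-gene cells, 17 at 100 counts and 1714 at 1 count. The 62 lower became 36, 39 with the trimmed mean, 99 with cells weighted equally, 19 thinned, 13 at 100 counts and 2772 at 1. The trimmed mean offset was -0.12. Against monocyte cells, 720 higher in LPS became 317 at 100 counts, 9404 at 1 and 171 thinned, and 1299 lower became 581 thinned. In Reg3g 459 became 296, 7657 and 201, and 2121 became 917 thinned.

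Of 1752 alternatives for 146 single genes, 1437 stayed inside the counting interval, 310 moved and 5 turned: Stfa1 (-1.82 on 4 UMIs with at least 1000 genes), Cxcl13 (-0.91) and Acp5 (0.79) without macrophage-gene cells, and Nap1l1 (0.68) and Ly6g (-0.0768) in thinned cells. The cause was not tested. Of 287 for 23 lists, 274 stayed and 13 moved. Leaving out macrophage-gene or other cells and the top cell of a gene were added after seeing the data. Depth limits genes under 40 counts, which include most azurophil and proliferation genes.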
